A study of Mus musculus with 16 samples.

Results

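A group of 9 genes that the transcription factor ATF4 is known to switch on, all of which act in or answer to amino acid supply, was followed on 16 arrays of organoids, balls of epithelium grown in culture, from mouse colon. The genes are Phgdh, Psat1, Psph, Shmt2, Mthfd2, Asns, Aldh18a1, Chac1 and Trib3, chosen by symbol as known ATF4 targets, each through its brightest probe set by mean, with earlier results of these data in view. They make up 9 of the 18850 named genes on the array, each has 1 probe set, and all 9 were among the 11766 genes bright enough to be tested. The arrays formed 4 groups of 4, named here mutant + TNFa, mutant, WT + TNFa and WT. Treated organoids received recombinant mouse TNFa (tumour necrosis factor alpha), an inflammatory cytokine, at 50 ng/ml for 12 h, and WT stands for wild type. The mutant organoids carry altered alleles of both Atf2 and Atf7, which encode related transcription factors of stress signalling. Their labels contradict each other: some give a knockout of Atf2 with a floxed Atf7, and others a floxed Atf2 with a knockout of Atf7. No label names a Cre driver or says that the floxed allele was recombined, so what the mutant organoids lacked is not known. All groups grew in ENR medium, which supplies EGF, Noggin and R-spondin. No label says that the 4 numbered samples of a group came from separate animals or cultures, so the p-values here take in only the spread among these arrays, which may be technical.

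ATF4 is the main transcription factor of the integrated stress response. When amino acids run short, when unfolded protein collects in the endoplasmic reticulum or when mitochondria fail, kinases phosphorylate the initiation factor eIF2alpha, general translation slows, and the ATF4 mRNA is translated more. The protein then pairs with C/EBP and other bZIP factors on composite sites in the genes of amino acid synthesis, uptake and tRNA charging. In intestinal epithelium, where cells divide fast and secrete much protein, these genes serve both growth and stress. Because ATF4 is controlled largely in translation, the level of its mRNA need not follow its activity.

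Promoter sequences of the 4 genes whose genotype differences are described most closely are shown to let the ATF4 site be seen where it occurs. All come from RefSeq (GRCm38.p6) and are the 250 bases upstream of the transcription start, written 5′ to 3′ on the gene's strand. Capitals mark a match to TGATGNAA, the core of the C/EBP-ATF response element, searched on both strands. Chac1 is at chr2:119350992-119351241 on the plus strand, Asns at chr6:7693210-7693459, Mthfd2 at chr6:83317605-83317854 and Aldh18a1 at chr19:40588464-40588713, the last 3 on the minus strand.
Chac1: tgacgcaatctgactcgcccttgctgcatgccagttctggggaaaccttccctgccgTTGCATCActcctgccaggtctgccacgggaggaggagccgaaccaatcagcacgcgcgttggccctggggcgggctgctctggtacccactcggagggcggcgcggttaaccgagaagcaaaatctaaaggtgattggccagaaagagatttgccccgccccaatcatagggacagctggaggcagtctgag
Asns: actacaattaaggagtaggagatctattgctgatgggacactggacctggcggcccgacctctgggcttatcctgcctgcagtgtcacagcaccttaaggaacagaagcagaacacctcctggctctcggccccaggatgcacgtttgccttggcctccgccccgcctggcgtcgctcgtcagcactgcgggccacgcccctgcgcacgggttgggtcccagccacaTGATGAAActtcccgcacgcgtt
Mthfd2: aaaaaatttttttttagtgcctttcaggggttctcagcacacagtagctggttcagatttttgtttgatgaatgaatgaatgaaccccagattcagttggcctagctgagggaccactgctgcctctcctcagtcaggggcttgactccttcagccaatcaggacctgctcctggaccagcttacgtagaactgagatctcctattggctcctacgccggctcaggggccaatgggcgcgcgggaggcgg
Aldh18a1: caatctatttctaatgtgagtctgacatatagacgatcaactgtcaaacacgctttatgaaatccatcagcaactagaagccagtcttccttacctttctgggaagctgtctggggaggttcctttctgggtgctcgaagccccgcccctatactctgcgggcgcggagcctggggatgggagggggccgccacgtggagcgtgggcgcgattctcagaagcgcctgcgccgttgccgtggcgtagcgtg

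The Asns match, TGATGAAA, lay at positions −23 to −16 from the start (chr6:7693225-7693232), and the Chac1 match, TTGCATCA on the opposite strand, at positions −193 to −186 (chr2:119351049-119351056). A match in Trib3, TTACATCA on the opposite strand, lay just inside the transcribed part, at bases 15 to 22 from the start (chr2:152344039-152344046). It is shown with its flanks, 30 bases at chr2:152344028-152344057 on the minus strand.
Trib3: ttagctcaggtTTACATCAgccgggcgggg

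All 9 genes matched the RefSeq promoter table, in 10 windows of 300 bases, since Psat1 has 2 starts there. The motif was found in 3 of the 10 member windows and in 3.97% of all 32851 windows (1304 windows). The cyclic AMP response element TGACGTCA, to which ATF2, ATF7 and CREB family dimers can bind, was in 0 of the 10 windows and in 1.79% of all windows. The ER stress response element was likewise in 0 of the 10, against 0.119% of all. Only these exact motifs were searched, so other forms of the ATF4 site within the windows were neither marked nor counted. Sites elsewhere in these genes were not searched.

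All 9 differences between mutant and WT were negative and small in each treatment. Over all tested genes 52.3% were below 0 untreated and 50.6% with TNFa. Of the 9 genes, 3 passed the test in 1 of the treatments. In untreated organoids Mthfd2 was 1.41-fold and Chac1 1.25-fold lower in mutant than in WT, and under TNFa Aldh18a1 was 1.21-fold lower. Over all tested genes 1.48% were called lower untreated and 1.13% with TNFa. The untreated calls of Mthfd2 and Chac1 were each lost when some single arrays were left out. TNFa lowered Chac1 by 1.24-fold in WT, where 5.75% of all tested genes were called lower. No member passed the test for TNFa in the mutant, where 2.47% of genes were called lower and 3.51% higher. A change was called at a Benjamini-Hochberg adjusted p under 0.05 over all 11766 tested genes, in 1 limma fit to all 16 arrays, and values are log2 array signals throughout. The plot of the 9 genes by array shows how narrow the ranges are: over all 16 arrays the widest, that of Mthfd2, was 0.81 log2 and the narrowest, that of Aldh18a1, 0.43.

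**Figure D1:**
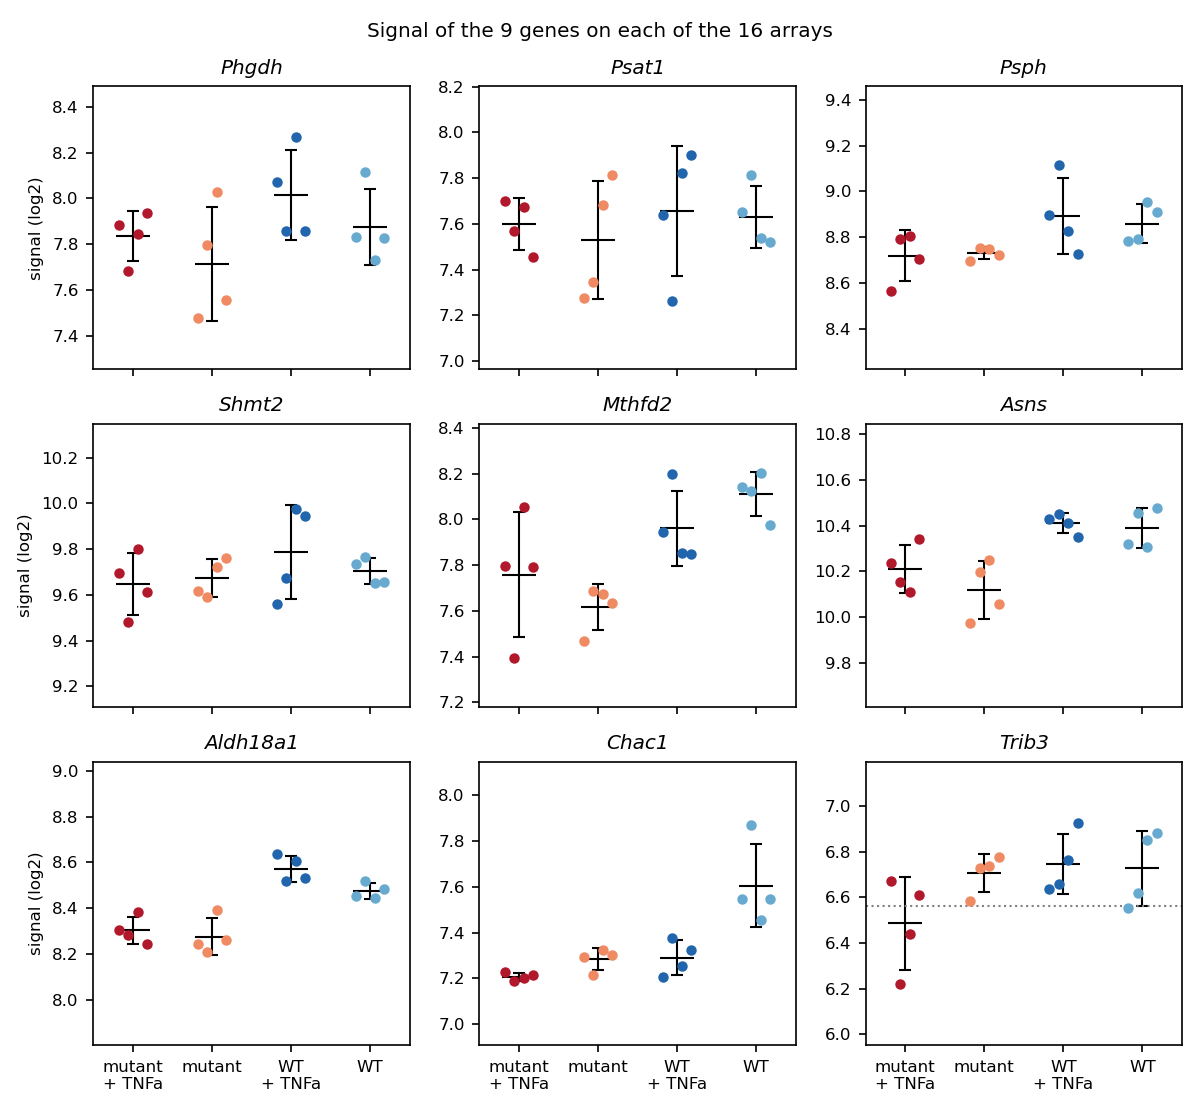
Signal (log2) of each gene on each array, in the groups mutant + TNFa, mutant, WT + TNFa and WT (4 arrays each). Points are arrays, the bar is the mean and the whiskers are the SD, every panel spans the same height, and the dotted line in the Trib3 panel is 6.56 log2, the upper edge of the dim range. Chac1 is high in WT alone, at 7.46 to 7.87, and all 8 mutant arrays of Aldh18a1, at 8.21 to 8.39, lie below all 8 WT arrays, at 8.44 to 8.64.

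The serine branch starts from the glycolytic intermediate 3-phosphoglycerate. Phgdh, which encodes its first enzyme, had signals of 7.84 ± 0.11 log2 in mutant + TNFa, 7.71 ± 0.25 in mutant, 8.01 ± 0.20 in WT + TNFa and 7.88 ± 0.17 in WT (mean ± SD, n = 4 each). Psat1, the aminotransferase of the next step, had 7.60 ± 0.11 log2 in mutant + TNFa, 7.53 ± 0.26 in mutant, 7.66 ± 0.29 in WT + TNFa and 7.63 ± 0.14 in WT. For both genes the groups overlapped in each of the 4 simple comparisons. The mutant minus WT difference of Phgdh was −0.16 untreated (95% interval −0.41 to 0.09, adjusted p = 0.63) and −0.18 with TNFa (−0.43 to 0.08, adjusted p = 0.559). That of Psat1 was −0.10 untreated (−0.38 to 0.18) and −0.06 with TNFa (−0.34 to 0.22), so changes of up to about these bounds could not be told from none.

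Psph encodes the phosphatase that releases serine. Its signals were 8.57, 8.79, 8.81 and 8.71 log2 in mutant + TNFa, 8.70, 8.75, 8.75 and 8.72 in mutant, 8.90, 9.12, 8.83 and 8.73 in WT + TNFa, and 8.78, 8.79, 8.95 and 8.91 in WT. The untreated mutant arrays all lay below the WT arrays, though by little, and the groups overlapped with TNFa. The difference was −0.13 untreated (SE 0.08, adjusted p = 0.525) and −0.17 with TNFa (SE 0.08, adjusted p = 0.33), and neither was called.

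Serine then feeds the mitochondrial folate cycle. Shmt2, which takes the one-carbon unit from serine, had 9.65 ± 0.14 log2 in mutant + TNFa, 9.67 ± 0.08 in mutant, 9.79 ± 0.20 in WT + TNFa and 9.70 ± 0.06 in WT, with groups that overlapped everywhere. Its mutant minus WT difference was −0.03 untreated (95% interval −0.22 to 0.16, adjusted p = 0.935) and −0.14 with TNFa (−0.33 to 0.05, adjusted p = 0.532).

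Mthfd2, the mitochondrial dehydrogenase and cyclohydrolase that acts after Shmt2 in the same cycle, had the largest genotype difference of the 9 in untreated organoids. It read 7.80, 7.39, 8.05 and 7.79 log2 in mutant + TNFa, 7.47, 7.69, 7.67 and 7.64 in mutant, 7.94, 8.20, 7.85 and 7.85 in WT + TNFa, and 8.14, 8.12, 8.20 and 7.98 in WT. All untreated mutant arrays lay below all WT arrays, whereas the TNFa groups overlapped, since mutant + TNFa 3, at 8.05, lay among the WT + TNFa arrays. The untreated difference was −0.50 (SE 0.11, 95% interval −0.73 to −0.26, adjusted p = 0.0217). With TNFa it was −0.20 (SE 0.11, −0.44 to 0.03, adjusted p = 0.454). The call in untreated organoids was lost when WT 1, WT 2, WT 3, mutant 1 or mutant 4 was left out, with adjusted p of 0.057, 0.0602, 0.0678, 0.077 and 0.0525 and differences between −0.45 and −0.50.

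Asns makes asparagine from aspartate and glutamine, and its promoter match stands at −23 to −16. It had 10.23, 10.15, 10.11 and 10.34 log2 in mutant + TNFa, 9.97, 10.20, 10.25 and 10.06 in mutant, 10.43, 10.45, 10.41 and 10.35 in WT + TNFa, and 10.32, 10.46, 10.31 and 10.48 in WT. The mutant arrays lay below the WT arrays without overlap both untreated and with TNFa, in the second case by a narrow margin. The difference was −0.27 untreated (SE 0.07, 95% interval −0.42 to −0.12) and −0.20 with TNFa (SE 0.07, −0.35 to −0.05). Neither was called, at adjusted p of 0.0529 and 0.183. The first passed the threshold without mutant 3 (−0.31, adjusted p = 0.0315), without WT + TNFa 2 (−0.27, adjusted p = 0.0414), and with all arrays under 4 other settings: trend and robust fitting (adjusted p = 0.0168), array weights (0.0353), the stricter filter (0.0357) and median centring (0.0418).

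Aldh18a1 encodes pyrroline-5-carboxylate synthase, the entry from glutamate into proline synthesis. Its signals were 8.31, 8.28, 8.38 and 8.24 log2 in mutant + TNFa, 8.24, 8.21, 8.39 and 8.26 in mutant, 8.64, 8.52, 8.61 and 8.53 in WT + TNFa, and 8.45, 8.52, 8.44 and 8.49 in WT. No mutant array reached any WT array, with or without TNFa. The difference with TNFa was −0.27 (SE 0.05, 95% interval −0.39 to −0.15, adjusted p = 0.0111) and was called. The untreated difference, −0.20 (SE 0.05, −0.31 to −0.08, adjusted p = 0.0692), was not. It passed the threshold without mutant 3 (−0.24, adjusted p = 0.0309), without WT + TNFa 2 (−0.20, adjusted p = 0.0438), with a stricter filter at the 60th percentile (−0.20, adjusted p = 0.042) and with array weights (−0.21, adjusted p = 0.0242).

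Chac1 encodes a gamma-glutamyl cyclotransferase that breaks down glutathione and is strongly induced by ATF4 under stress. It had 7.23, 7.19, 7.20 and 7.21 log2 in mutant + TNFa, 7.29, 7.21, 7.32 and 7.30 in mutant, 7.20, 7.38, 7.26 and 7.32 in WT + TNFa, and 7.55, 7.87, 7.46 and 7.55 in WT. Untreated WT stood above the other 3 groups, which overlapped one another only in part and all stayed at or below 7.38. The mutant minus WT difference was −0.32 untreated (SE 0.07, 95% interval −0.48 to −0.17, adjusted p = 0.0237), and the TNFa effect in WT was −0.31 (SE 0.07, −0.47 to −0.16, adjusted p = 0.00912), so both comparisons share the WT arrays. With TNFa the genotypes differed by −0.08 (−0.24 to 0.07, adjusted p = 0.682). WT 2, at 7.87, was the highest array, and without it the untreated difference was −0.23 (adjusted p = 0.0517). That call was also lost without mutant 1 (adjusted p = 0.052), mutant 2 (0.0832) or mutant 4 (0.0545), while the fall with TNFa in WT kept its call whichever array was left out.

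Trib3, a pseudokinase that ATF4 and CHOP induce and that in turn restrains ATF4, was close to the dim range. It read 6.67, 6.22, 6.44 and 6.61 log2 in mutant + TNFa, 6.58, 6.73, 6.74 and 6.77 in mutant, 6.64, 6.66, 6.76 and 6.93 in WT + TNFa, and 6.55, 6.62, 6.85 and 6.88 in WT. The mutant + TNFa mean, 6.49, fell in the dim range below 6.56 log2, where a fold is approximate, and only 2 of its 4 arrays passed their own array's 40th percentile. Its differences were −0.22 for TNFa in mutant (adjusted p = 0.287) and −0.26 for genotype with TNFa (adjusted p = 0.234), and neither was called. The groups overlapped in all 4 simple comparisons.

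**Figure D2:**
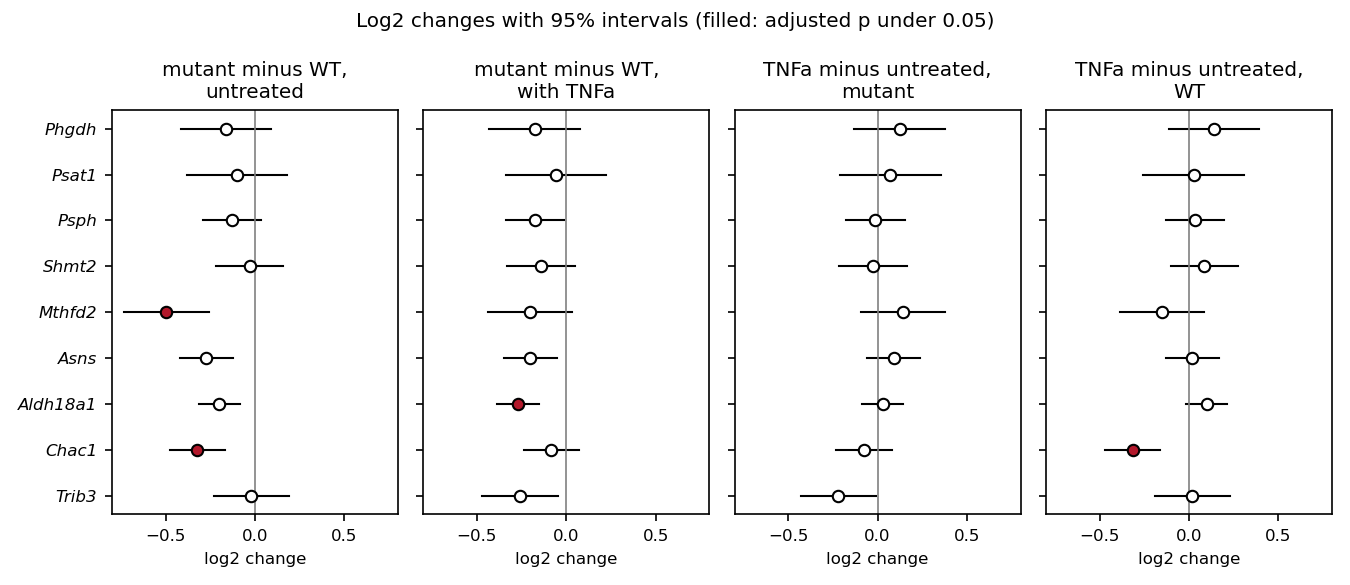
Log2 change of each gene (rows) in 4 comparisons (panels), with 95% intervals from the fit and filled points for an adjusted p under 0.05. All 9 points lie left of 0 in both genotype panels, with Mthfd2 at −0.50 and Chac1 at −0.32 filled untreated and Aldh18a1 at −0.27 filled with TNFa, and the TNFa panels lie on both sides of 0 apart from the filled Chac1 at −0.31 in WT.

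Across the 9 genes the untreated genotype comparison called 2 lower and 0 higher, where 1.48% of all tested genes were called lower and 1% higher. With TNFa it called 1 lower and 0 higher, where 1.13% of genes were called lower and 1.56% higher. All 9 differences were below 0 in both comparisons, against 52.3% of all tested genes untreated and 50.6% with TNFa. The 2 comparisons share no array, but no label says that their organoids came from separate cultures. The 9 genes also varied together to a modest degree and were chosen with earlier results of these data known. The count is therefore a description only. The members' median was −0.16 untreated and −0.18 with TNFa, beside all-gene medians of −0.01 and −0.00. Mutant arrays lay wholly below WT arrays for 5 of the 9 untreated (Mthfd2, Chac1, Asns, Psph and Aldh18a1), where 5.88% of tested genes did so, and for 2 of the 9 with TNFa (Asns and Aldh18a1), where 4.62% did.

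The TNFa comparisons gave no such common direction. In WT, 1 member was called lower and 0 higher, against 5.75% of genes called lower and 5.03% higher. Chac1 was also the 1 member whose TNFa arrays all lay lower, as 7.34% of genes did, and 2 of the 9 changes were below 0 against 47.1% of all genes. In mutant, 0 of the 9 were called, against 2.47% of genes called lower and 3.51% higher, 4 of the 9 changes were below 0 against 47.2% of all, 1 member, Trib3, had an unadjusted p under 0.05 where 15.7% of genes had one, and 0 members had all TNFa arrays lower where 5.98% of genes did. The median member change was 0.03 in both. For the 8 members not called in WT the 95% intervals ran from −0.39 at the lowest to 0.39 at the highest, and for the 9 in mutant from −0.43 to 0.38.

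Whether TNFa acted differently in the 2 genotypes was tested by the difference of its effects, mutant minus WT. None of the 9 was called by limma, and 1 had an unadjusted p under 0.05, where 0.0085% of all tested genes were called and 7.27% had such a p. That member was Chac1, at 0.24 (95% interval 0.02 to 0.46, unadjusted p = 0.035, adjusted p = 0.655). Mthfd2 followed with 0.29 (−0.04 to 0.63, adjusted p = 0.744). That the Chac1 fall passed the test in WT and not in mutant, and the Mthfd2 difference untreated and not with TNFa, is therefore not shown to be a difference between those groups.

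Averaging the genotype difference over both treatments, a comparison added after the values had been seen, called 4 of the 9 lower and 0 higher, where 3.36% of genes were called lower and 2.52% higher. They were Aldh18a1 (−0.23, SE 0.04, adjusted p = 0.000991), Asns (−0.24, SE 0.05, adjusted p = 0.00785), Mthfd2 (−0.35, SE 0.08, adjusted p = 0.0122) and Chac1 (−0.20, SE 0.05, adjusted p = 0.0269). Chac1 lost that call without mutant + TNFa 2 (adjusted p = 0.0538), without mutant 2 (adjusted p = 0.0609) or with no filter on dim genes (adjusted p = 0.0577). The average uses the same arrays as the comparisons above. The TNFa effect averaged over both genotypes, also added afterwards, called Chac1 alone (−0.20, SE 0.05, adjusted p = 0.0153), where 7.22% of genes were called lower and 7.79% higher.

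Atf4 mRNA itself stood at 11.12 ± 0.07 log2 in mutant + TNFa, 11.04 ± 0.10 in mutant, 11.12 ± 0.18 in WT + TNFa and 11.11 ± 0.05 in WT. The mutant minus WT difference was −0.07 untreated (95% interval −0.23 to 0.10, adjusted p = 0.79) and −0.00 with TNFa (−0.17 to 0.16, adjusted p = 0.998), and TNFa changed it by 0.08 in mutant (adjusted p = 0.748) and 0.01 in WT (adjusted p = 0.947). ATF4 protein was not measured. Atf2 mRNA, the label check, was 10.12 ± 0.01 log2 in mutant + TNFa, 10.15 ± 0.03 in mutant, 10.18 ± 0.02 in WT + TNFa and 10.16 ± 0.14 in WT, with no called difference. A probe set outside a deleted part checks nothing, and the part of the gene that this one covers is not stated in those sources. Atf7 was not analysed here, as no probe set carries its name. Chac1 and Trib3 lie on chromosome 2, as does Atf2, and the other 7 members lie on chromosomes 3, 5, 6, 10 and 19.

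The arrays were alike in overall signal, with medians of 7.02 to 7.11 log2, and WT + TNFa 2 stood somewhat apart, with a mean correlation of 0.977 with its group. Markers of colon epithelium were bright in all groups, 13 of 13 on the array above the dim range, and their summed signal was 15.60 to 15.64 log2 in mutant + TNFa, 15.61 to 15.66 in mutant, 15.57 to 15.67 in WT + TNFa and 15.61 to 15.65 in WT. Among them the transcription factor Cdx2 was lower in mutant than in WT untreated (−0.52, SE 0.11, adjusted p = 0.0158), a call lost without 3 of the 16 arrays in turn (highest adjusted p 0.0602). In the genotype difference averaged over both treatments limma called Cdx2 lower (−0.47, adjusted p = 0.00132) and Slc26a3 higher (0.19, adjusted p = 0.0093). Of the 13 averaged differences 7 were below 0, with a median of −0.00, so the markers had no common direction. None of the 7 endothelial and glial markers on the array was bright enough to test. Of 9 fibroblast and smooth muscle markers 4 were tested and none was called by limma or had an unadjusted p under 0.05 in any of the 5 comparisons, with a summed signal of 9.75 to 9.98 log2 in mutant + TNFa, 9.78 to 10.001 in mutant, 9.77 to 10.01 in WT + TNFa and 9.80 to 9.92 in WT. Of 10 immune cell markers only Lyz2, a lysozyme of myeloid cells, was tested. Lyz2 was 1.25 log2 higher in mutant + TNFa than in WT + TNFa (SE 0.20, adjusted p = 0.00177). In WT it fell with TNFa (−0.74, SE 0.20, adjusted p = 0.0244), a call lost without 4 of the 16 arrays in turn (highest adjusted p 0.0826). The summed signal of the 10 markers was 9.91 to 10.09 log2 in mutant + TNFa, 9.78 to 9.94 in mutant, 9.52 to 9.65 in WT + TNFa and 9.69 to 9.84 in WT. In every group Lyz2 was the only 1 of the 10 with a mean above the dim range, so this sum is no measure of immune cells in general. The part of Lyz2 in the genotype difference of Aldh18a1 with TNFa and in the fall of Chac1 with TNFa in WT was not tested. In such bulk samples a smaller number of cells of one type and less RNA per cell cannot be told apart.

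The kinases and factors upstream of and beside ATF4 showed no genotype call. Of 14 such genes 13 were tested, and limma called 0 between the genotypes. Untreated, 10 of 13 were below 0 (median −0.07), against 52.3% of all tested genes, and 2 had an unadjusted p under 0.05. With TNFa 8 of 13 were below 0 (median −0.02), against 50.6%, and 0 had such a p. For the genotype comparisons the share of all genes with such a p was not counted, here or for the lists below. Ddit3, which encodes the stress factor CHOP, fell with TNFa in both genotypes. It was the only 1 of the 13 called with TNFa, where 2.47% of all genes were called lower in mutant and 5.75% in WT. In mutant it was 9.21 ± 0.15 log2 with TNFa and 9.51 ± 0.12 untreated (−0.30, SE 0.08, adjusted p = 0.033). In WT it was 9.21 ± 0.08 with TNFa and 9.63 ± 0.09 untreated (−0.42, SE 0.08, adjusted p = 0.00214). The fall in mutant lost its call without 6 of the 16 arrays in turn (highest adjusted p 0.124).

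Other known ATF4 targets, 20 tested of 25, were lower in places in both kinds of comparison. Between the untreated genotypes 2 of 20 were called lower and 0 higher, where 1.48% of all tested genes were called lower and 1% higher. Slc1a4, a transporter of alanine, serine and cysteine, was 8.29 ± 0.06 log2 in mutant and 8.74 ± 0.11 in WT (−0.46, SE 0.09, adjusted p = 0.00653). Gpt2, the mitochondrial alanine aminotransferase, was 6.53 ± 0.23 in mutant, within the dim range, and 7.09 ± 0.23 in WT (−0.56, SE 0.12, adjusted p = 0.013), a call lost without 2 of the 16 arrays in turn (highest adjusted p 0.0544). Of the 20 differences 18 were below 0, with a median of −0.14, against 52.3% of all genes. With TNFa limma called 0 of the 20 and 5 had an unadjusted p under 0.05. Of the 20 differences with TNFa 14 were below 0, against 50.6% of all genes, and the median was −0.07. In the genotype difference averaged over both treatments limma called 4 of the 20 lower and 0 higher, against 3.36% and 2.52% of genes. They were Slc1a4 (−0.32, adjusted p = 0.00425), Gpt2 (−0.36, adjusted p = 0.0145), Nars (−0.14, adjusted p = 0.041) and Slc7a1 (−0.16, adjusted p = 0.0424). A fall in this average was thus not particular to the 9 genes.

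Several of these targets were called lower with TNFa, as were 2.47% of all tested genes in mutant and 5.75% in WT. In mutant 2 of 20 fell: Stc2, a secreted glycoprotein of stress (−0.88, SE 0.14, adjusted p = 0.000401), and Cth, the cystathionine lyase that makes cysteine (−0.41, SE 0.07, adjusted p = 0.00133). In WT 4 of 20 fell: Cth (−0.50, SE 0.07, adjusted p = 0.000126), Stc2 (−0.84, SE 0.14, adjusted p = 0.000431), Gpt2 (−0.50, SE 0.12, adjusted p = 0.00936) and Cbs, the synthase before Cth in the same pathway (−0.27, SE 0.07, adjusted p = 0.0209). Cbs lay in the dim range in WT + TNFa at 6.40 log2 and lost its call without 2 of the 16 arrays in turn (highest adjusted p 0.0712). Median changes of the list were −0.03 in mutant and −0.11 in WT.

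Of 20 cytosolic aminoacyl-tRNA synthetases, which charge tRNAs and include known ATF4 targets, 18 were tested, and Vars, the valine enzyme, rose with TNFa in mutant (0.53, SE 0.07, adjusted p = 0.00011) and in WT (0.35, SE 0.07, adjusted p = 0.00343). Vars was the only 1 of the 18 called in either, where 3.51% of all genes were called higher in mutant and 5.03% in WT. None of the 18 was called between the genotypes by limma in either treatment. Untreated, 15 of 18 were below 0, against 52.3% of all tested genes, and 2 had an unadjusted p under 0.05. With TNFa 14 of 18 were below 0, against 50.6%, and 5 had such a p. Averaged over both treatments, limma called Nars, which is also among the other ATF4 targets, lower in mutant (−0.14, SE 0.04, adjusted p = 0.041). In the wider serine, glycine and folate network 15 of 25 genes were tested. Aldh1l1, a cytosolic enzyme that oxidises formyl folate, fell with TNFa in WT (−0.41, SE 0.06, adjusted p = 0.000178) and was higher in mutant than in WT with TNFa (0.27, SE 0.06, adjusted p = 0.0231). The second call was lost without 4 of the 16 arrays in turn (highest adjusted p 0.0868). The remaining 14 of these 15 were not called in any of the 5 comparisons, and the list's genotype medians were 0.01 untreated and −0.03 with TNFa. Over all tested genes 5.75% were called lower with TNFa in WT, and 1.56% higher in mutant than in WT with TNFa.

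Some enzymes of proline, glutamate, asparagine and the urea cycle moved with TNFa. Of 10 tested of 18, TNFa lowered 2 and raised 1 in mutant, where 2.47% of all tested genes were called lower and 3.51% higher. In WT it lowered 4 and raised 0, where 5.75% were called lower and 5.03% higher. Between the genotypes limma called 0 (3 at an unadjusted p under 0.05 untreated and 0 with TNFa). Otc, the ornithine transcarbamylase, fell by 1.29 log2 in mutant (SE 0.14) and by 1.33 in WT (SE 0.14), into the dim range, at 5.87 to 6.10 log2 in mutant + TNFa and 5.46 to 6.26 in WT + TNFa. Gpt, the cytosolic alanine aminotransferase, fell by 0.85 in mutant (SE 0.13, adjusted p = 0.000414) and by 1.00 in WT (SE 0.13, adjusted p = 5.28e-05). Oat, which links ornithine to the proline pathway, fell in WT (−0.43, SE 0.09, adjusted p = 0.00359), as did Pycrl, a reductase at the end of proline synthesis (−0.23, SE 0.07, adjusted p = 0.0383). Asl, the argininosuccinate lyase, rose in mutant (0.22, SE 0.06, adjusted p = 0.0406). Pycrl and Asl lost these calls without 6 and 11 of the 16 arrays in turn (highest adjusted p 0.128 and 0.144).

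**Figure D3:**
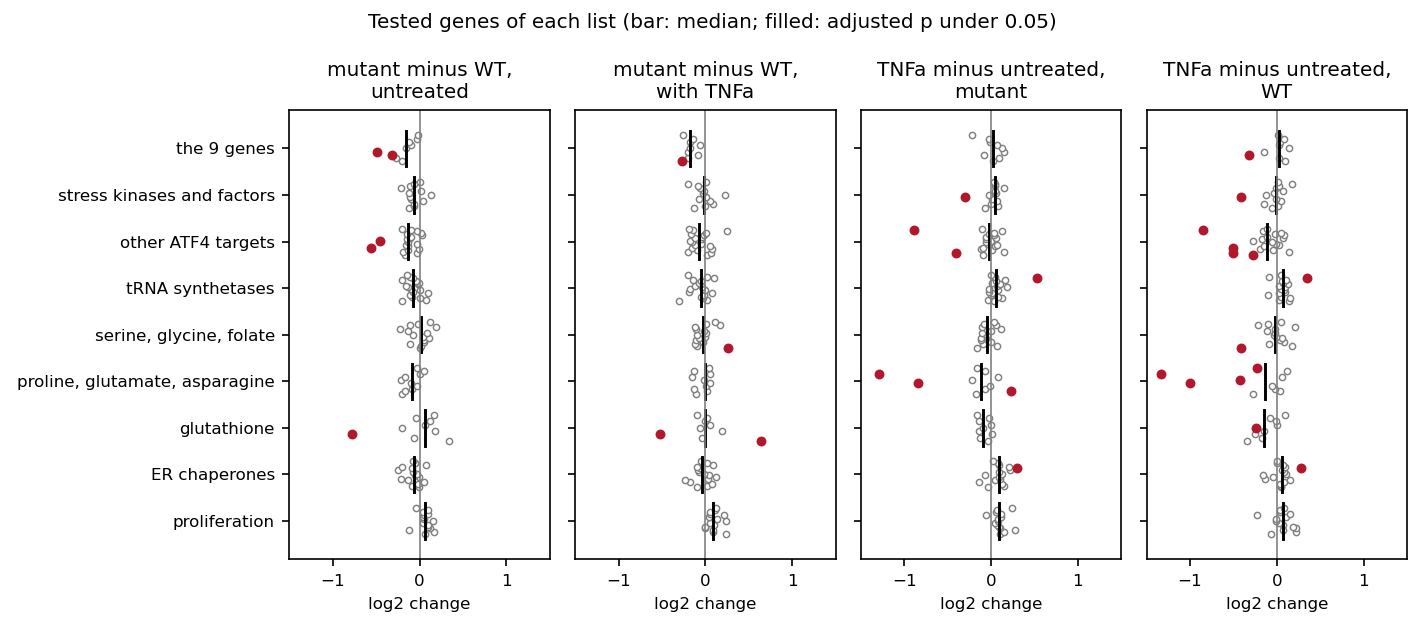
Log2 change of the tested genes of each list (rows) in 4 comparisons (panels). Points are genes, filled where the adjusted p is under 0.05, and the bar is the list's median. In the genotype panels the 9 genes have medians of −0.16 and −0.18, and in the TNFa panels 0.03 in both, while other ATF4 targets have −0.14, −0.07, −0.03 and −0.11 from left to right.

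The 9 genes varied together to a modest degree. Over the 16 arrays the 36 pairs had a median Pearson's r of 0.36 and 34 were above 0, against a median of 0.01 for pairs among 2000 sampled genes. Asns and Aldh18a1 had the highest r, 0.76, and Psat1 and Psph the lowest, −0.34. With each group's mean subtracted the median was 0.17 and 25 pairs were above 0, Asns with Aldh18a1 had 0.14, and the highest were Psat1 with Shmt2 and Asns with Phgdh, both 0.68. All pairs share the same 16 arrays, so array-wide shifts enter every r, and these values are descriptions only.

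**Figure D4:**
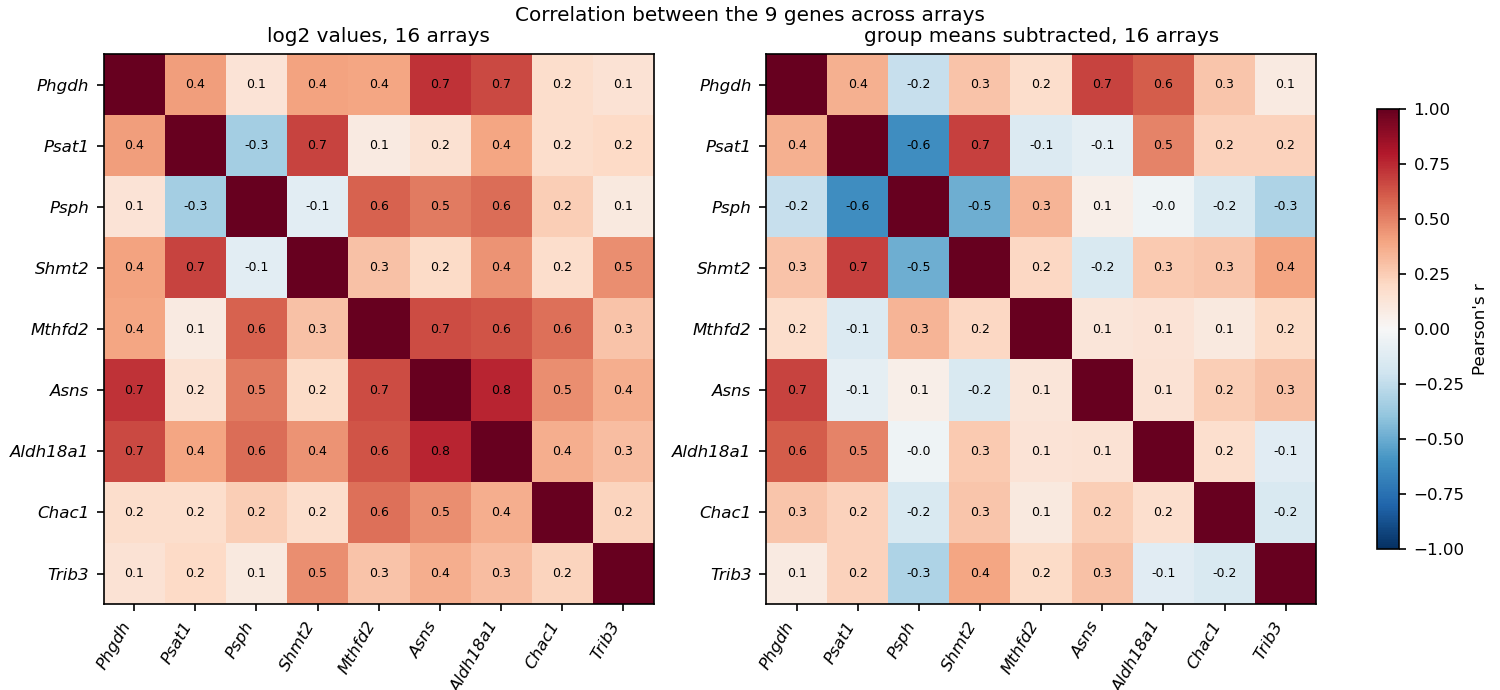
Pearson's r between each pair of the 9 genes over 16 arrays, from the log2 values (left) and with each group's mean subtracted (right), on a colour scale from −1 to 1. On the left 34 of 36 pairs are above 0 and the highest is Asns with Aldh18a1 at 0.76. On the right 25 are above 0 and that pair is at 0.14.

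The mean of the 9 standardised genes was −1.10 to −0.17 in mutant + TNFa, −1.18 to 0.02 in mutant, 0.32 to 0.86 in WT + TNFa and 0.26 to 0.93 in WT, so all 8 mutant arrays lay below all 8 WT arrays. This mean is built from the same values as the genotype differences above and is no further result. No other set of genes was scored in this way. Genes most like this mean by Pearson's r over 16 arrays were Slc25a4 (0.93), Ttc21b (0.92), Skil (0.90), Galnt3 (0.89), Fkbp9 (0.89) and Dynlt3 (0.89). With group means subtracted they were Wdr36 (0.92), Abcd3 (0.91), Cdk17 (0.90), Clk4 (0.89), Zbtb8os (0.87) and Mrps18c (0.87), so no gene was in both sets. Atf4 had an r of 0.32, and of 0.30 with group means subtracted. Of the first 6, 4 were called lower in untreated mutant than in WT, where 1.48% of all tested genes were. The 6 were picked for following a mean that was lower on every mutant array than on any WT array. Calls in this direction therefore follow from the choice and are no separate result. Skil differed by −0.42 (SE 0.07, adjusted p = 0.00149), Galnt3 by −0.42 (SE 0.07, adjusted p = 0.00254) and Fkbp9 by −0.75 (SE 0.17, adjusted p = 0.0253), and Fkbp9 was also called with TNFa (−0.72, SE 0.17, adjusted p = 0.0308). Ttc21b differed most, by −2.97 untreated (SE 0.21, adjusted p = 5.07e-07) and −2.39 with TNFa (SE 0.21, adjusted p = 6.42e-06). Ttc21b is a chromosome neighbour of Atf2, whose alleles are altered in the mutant. The part of that position in its difference was not tested.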

How the data were processed

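Total RNA, 400 ng per sample, was amplified and labelled with biotin for Affymetrix arrays of 1 colour, per the labels' protocols. Per the submitters' processing notes, the authors deposited log2 signals computed by RMA in Affymetrix Expression Console. No version, array design or genome build is named there (not given in the sources used here). RMA in its usual form normalizes arrays by quantiles and compresses differences between dim signals, so folds can be understated. Of 19825 probe sets, 18851 had 1 gene symbol, 974 none and 0 several, and each gene was taken from its brightest probe set by mean. Testing required a signal above its array's 40th percentile (6.40 to 6.56 log2) on at least 4 of 16 arrays and left 11766 genes. The deposited values were used with no further normalization and no pseudocount. limma 3.58.1 in R 4.3.3 fitted group means over all 16 arrays, with 5 comparisons and 2 averages added after seeing the values, and p was adjusted by Benjamini-Hochberg over all tested genes. The functions were tested on simulated data.

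The members, the 14 other lists (201 symbols, 176 on the array, 144 tested) and the motifs were chosen with earlier results of these data known. Named were all members, Atf2, Atf4 and Atf7, up to 4 called genes per list and comparison, and the 6 genes most like the members by each measure. Lyz2 and other markers come from these lists, and Ttc21b from the likeness rule. Same-numbered samples did not deviate together: correlations were −0.09 to 0.19 in mutant and −0.30 to 0.01 in WT between TNFa and untreated arrays, and −0.10 to 0.25 with TNFa and −0.31 to −0.04 untreated between the genotypes. The numbers were therefore not taken as pairs. Arrays have no depth in reads, and their number limits the precision. Alternatives were other filters, other uses of probe sets, variance trend with robust fitting, array weights, median centring, repeated quantile normalization, the replicate block, fits to only the groups compared, and each array left out.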

Additional observations from a re-analysis of the deposited data

How the results depend on the processing

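Of 1597 values of the 9 genes under the alternatives, 1571 kept their side of the threshold and, where called, their direction, 16 lost a call, 10 gained one and 0 called values changed sign, while 53 uncalled values changed sign. Members called for TNFa in WT came to 0 with the stricter filter, where Chac1 is not tested, and to 0 with only the groups compared (adjusted p 0.0789). For the untreated genotypes 1 member was called with no filter (Chac1 then 0.0534), 1 with only the groups compared (Chac1 0.0933) and 4 with array weights, which add Asns (0.0353) and Aldh18a1 (0.0242). The averaged genotype call of Chac1 was lost with no filter (0.0577). For the genotypes with TNFa 0 were called with only the groups compared (Aldh18a1 0.0586), and for averaged TNFa 0 with the stricter filter. These fits to fewer arrays also called fewer genes in all: 720 for TNFa in WT and 185 for genotype with TNFa, against 1269 and 317. Array weights called more, 1095 for TNFa in mutant, 443 for genotype untreated, 617 with TNFa and 1072 averaged, against 704, 292, 317 and 692; the cause was not tested. The difference of TNFa effects called 3 genes with the stricter filter, 5 with trend and robust fitting and 3 with array weights, against 1.

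With 1 array left out in turn, members called ranged from 1 to 1 for TNFa in WT, 0 to 0 for TNFa in mutant, 0 to 4 for genotype untreated, 1 to 1 with TNFa, 0 to 0 for the difference, 3 to 4 for averaged genotype and 1 to 1 for averaged TNFa. Genes called in all ranged from 955 to 1430, 504 to 900, 198 to 435, 192 to 340, 0 to 4, 523 to 838 and 1509 to 2077 in the same order. Of 32 called changes in the other lists, 18 kept their call in all 16 such fits and 14 did not.

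With the replicate block the same members were called in each comparison: 1 for TNFa in WT, 0 for TNFa in mutant, 2 for genotype untreated, 1 with TNFa, 0 for the difference, 4 for averaged genotype and 1 for averaged TNFa. Genes called under the block were 876, 500, 246, 262, 0, 593 and 1364 in that order.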

Other observations

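Of 10 genes of glutathione synthesis and turnover, the pathway on which Chac1 acts, 9 were tested. Dpep1, a brush border dipeptidase, was lower in mutant than in WT both with TNFa (9.21 ± 0.07 against 9.74 ± 0.16 log2, a difference of −0.53, SE 0.11, adjusted p = 0.012) and untreated (9.21 ± 0.10 against 9.99 ± 0.27, −0.78, SE 0.11, adjusted p = 0.000386). Anpep, a brush border aminopeptidase, was higher in mutant with TNFa (8.18 ± 0.11 against 7.54 ± 0.29, 0.64, SE 0.14, adjusted p = 0.0144), a call lost without 2 of the 16 arrays in turn (highest adjusted p 0.0507). Gclm, the modifier subunit of glutamate-cysteine ligase, fell with TNFa in WT (−0.24, SE 0.06, adjusted p = 0.023), a call lost without 3 arrays in turn (highest adjusted p 0.0807). Over all tested genes 5.75% were called lower with TNFa in WT. Between the genotypes 1.48% were called lower untreated, and 1.13% lower and 1.56% higher with TNFa. Chac2, the close relative of Chac1, was 8.68 ± 0.08 log2 in mutant + TNFa, 8.82 ± 0.10 in mutant, 8.72 ± 0.07 in WT + TNFa and 8.89 ± 0.07 in WT and was not called in any of the 5 comparisons. In the TNFa effect averaged over both genotypes limma called Chac2 lower (−0.15, SE 0.04, adjusted p = 0.0312), as it did 7.22% of genes.

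Of 18 ER chaperones and genes of other unfolded protein branches, 16 were tested, and Hyou1, an ER chaperone, rose with TNFa in mutant (0.30, SE 0.08, adjusted p = 0.0268) and in WT (0.27, SE 0.08, adjusted p = 0.0296). These calls were lost without 6 and 4 arrays in turn (highest adjusted p 0.0867 and 0.1). Hyou1 was the only 1 of the 16 called with TNFa in either genotype, where 3.51% of all genes were called higher in mutant and 5.03% in WT. None of the 16 was called by limma between the genotypes with TNFa or untreated, while Hspa5, the ER chaperone BiP, was called lower in mutant in the average over both treatments (−0.17, adjusted p = 0.0479). The counts were 9 of 16 below 0 and 3 at an unadjusted p under 0.05 with TNFa, and 14 of 16 below 0 and 2 at such a p untreated. Over all tested genes 50.6% were below 0 with TNFa and 52.3% untreated. The 15 tested proliferation genes had 0 limma calls in the 4 simple comparisons. In the TNFa effect averaged over both genotypes 1 of the 15, Birc5, was called higher (0.18, SE 0.06, adjusted p = 0.0483), where 7.79% of genes were. Unaveraged values follow. An unadjusted p under 0.05 was found for 2 in genotype with TNFa, 0 in genotype untreated, 1 for TNFa in mutant and 3 for TNFa in WT. Of these genes 2 of 15 were below 0 in each genotype comparison, where 50.6% of all genes were with TNFa and 52.3% untreated. Their medians were 0.09 with TNFa and 0.06 untreated. Among 9 tested MYC and growth regulators, Mxd1, a repressor that competes with MYC for MAX, rose with TNFa in WT (0.26, SE 0.07, adjusted p = 0.0167), a call lost without 2 arrays in turn (highest adjusted p 0.0541). Of the Tribbles relatives of Trib3, 1 of 2 was tested and it was not called. Muc2, the goblet cell mucin, fell with TNFa in WT (−0.25, SE 0.07, adjusted p = 0.0216), a call lost without 2 arrays in turn (highest adjusted p 0.0727). For Mxd1 and Muc2 the shares of all genes called with TNFa in WT were 5.03% higher and 5.75% lower.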
